A study of Mus musculus with 3 samples.

Results

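Conventional dendritic cells were found in all 3 liver single-cell libraries of this mouse study, 112 cells among 8087. They were chosen by measured values, in cells with at least 1000 UMIs (unique molecular identifiers, counted transcripts), 300 or more genes and no more than 20% of UMIs from mitochondrial genes. A member carried at least 3 UMIs of Naaa, Xcr1, Clec9a, Cd209a, Flt3 and Zbtb46 together and at least 50 UMIs per 10000 of the class II genes H2-Aa, H2-Ab1, H2-Eb1 and Cd74. It carried at most 1 UMI of the plasmacytoid markers Siglech and Ccr9, at most 1 UMI of the B cell markers Cd79a and Ms4a1, and fewer than 20 UMIs per 10000 of the Kupffer cell markers Clec4f, Vsig4 and Cd5l. The rule kept 23 of 3208 cells in the IDD+HTF library, 66 of 3545 in the IDD+HID library and 23 of 1334 in the IDD library.

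All 3 mice had the WT genotype and had eaten an iron-deficient diet with 2 to 6 ppm iron for 1 week. The IDD+HTF mouse was injected into a vein with 10 mg of holo-Tf, which is iron-loaded transferrin, the plasma iron carrier. How long after the injection its liver was taken is not given in the sources used here. The IDD+HID mouse was moved to a high-iron diet with 2% carbonyl iron for 18 h, and the IDD mouse received the iron-deficient diet alone. Livers were perfused with collagenase, digested further with pronase, and a little of the hepatocyte suspension was mixed back into the non-parenchymal cells before droplet capture. Each group was 1 mouse and 1 library, so no difference between groups has a replicate check, no test was possible, and every interval given here is a 95% interval for counting error only.

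Conventional dendritic cells take up antigen, carry it to lymph nodes and present it on class I and class II molecules to T cells. Type 1 cells (cDC1), marked by the chemokine receptor Xcr1 and the dead-cell receptor Clec9a, depend on the transcription factors Irf8 and Batf3 and cross-present antigen to CD8 T cells. Type 2 cells (cDC2), of which many express the lectin Cd209a, depend on Irf4 and mainly present to CD4 T cells. Cells take up transferrin-bound iron through the transferrin receptor (Tfrc), whose level is lowered when iron is plentiful. Ferritin stores iron inside the cell and ferroportin (Slc40a1) exports it.

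The members held more RNA than the median cell of their library. The median member held 14992 UMIs in the IDD+HTF library, 15612.5 in the IDD+HID library and 14592 in the IDD library, against medians over all cells of 4467, 8608 and 3649 UMIs in the same libraries. Summed over members this gave 375724, 1123848 and 360924 UMIs, and mitochondrial genes took a median of 1.79%, 1.96% and 1.82%. No barcode was shared between libraries among members. Members with exactly 3 marker UMIs numbered 0, 6 and 5 in the IDD+HTF, IDD+HID and IDD libraries, and 3, 4 and 4 further cells met all other limits with 2 marker UMIs. Levels below are CPM, a gene's UMIs summed over the cells named scaled to 1000000 UMIs of those cells.

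Xcr1 and Clec9a on one side and Cd209a on the other divided the members. Cells were sorted to the side with more UMIs, which gave 66 Xcr1/Clec9a cells, 30 Cd209a cells and 16 unsorted cells with no UMI of the 3 genes. Xcr1 and Clec9a were found together in 50 members, Xcr1 without Clec9a in 9 and Clec9a without Xcr1 in 15. Cd209a was found with either of them in 9 of those cells and without both in 22 further members. The IDD+HTF library held 15 Xcr1/Clec9a and 8 Cd209a cells, the IDD+HID library 37 and 16, and the IDD library 14 and 6. Xcr1/Clec9a cells were 65.2% (42.7 to 83.6), 69.8% (55.7 to 81.7) and 70.0% (45.7 to 88.1) of the sorted members in that order, and the exact binomial intervals overlapped widely. One Xcr1/Clec9a cell of the IDD+HID library, with 18 Cd209a UMIs, held all the Cd209a found in that subset.

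**Figure D1:**
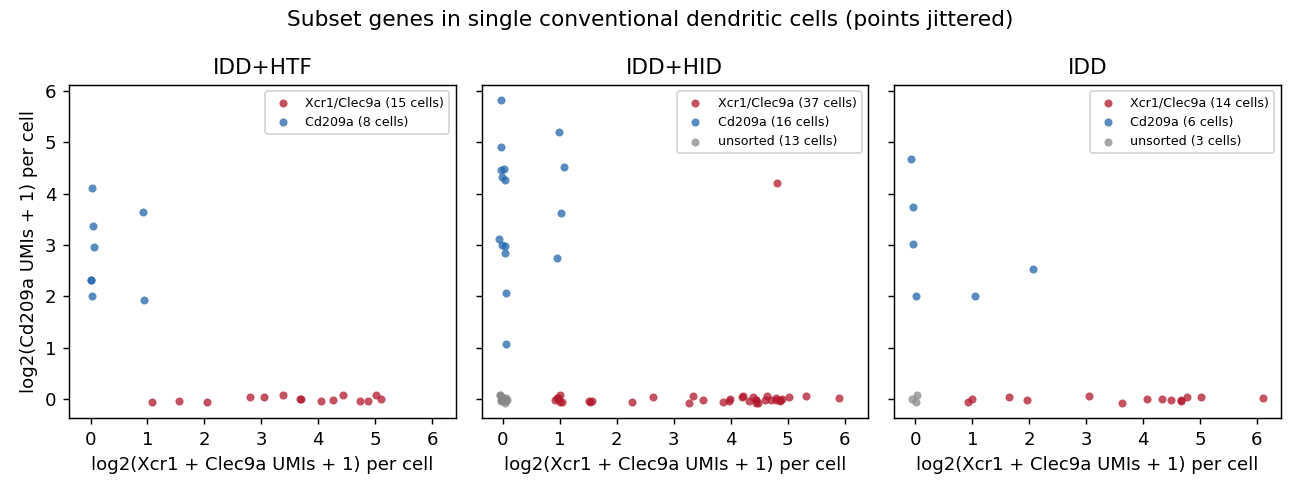
Each point is 1 member, placed by its Xcr1 plus Clec9a UMIs (x axis) and its Cd209a UMIs (y axis), with 1 panel per library in the order IDD+HTF, IDD+HID and IDD. Nearly all cells lie along one axis or the other, and the unsorted cells, 0, 13 and 3 in number, lie at 0 on both.

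The genes of the rule stood as follows, as a description, because they chose the cells. Naaa (chr5:92257659-92278170, minus strand, GRCm38), a lysosomal amidase gene, had 521.7 CPM in IDD+HTF members, 528.5 in IDD+HID members and 978 in IDD members. Naaa was thus highest in the IDD library, where 1 cell alone held 86 of the 353 UMIs. Xcr1 (chr9:123852315-123862029, minus strand) had 372.6, 348.8 and 487.6 CPM in the same order, found in 15, 31 and 13 members. Clec9a (chr6:129408862-129424763, plus strand) had 231.6, 194.9 and 224.4 CPM, and its 3 Poisson intervals overlapped. Cd209a (chr8:3743397-3748984, minus strand) had 151.7, 258.9 and 155.2 CPM, all of it from 8, 17 and 6 members. Flt3, the receptor of the growth factor that sustains dendritic cells, had 181, 177.1 and 169 CPM, with Poisson intervals that overlapped. Zbtb46, a transcription factor of conventional dendritic cells, had 55.9, 47.2 and 49.9 CPM. Cd74, the class II invariant chain, was at 19940, 23670 and 22290 CPM, and H2-Aa at 8493, 9981 and 8838 CPM.

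These markers were not limited to the members. After every cell was thinned to 1000 UMIs, Xcr1 was found in 37.2%, 35.8% and 40.5% of Xcr1/Clec9a cells of the IDD+HTF, IDD+HID and IDD libraries, against 0.175%, 0.656% and 0.948% of B cells. Unthinned, Xcr1 was found in 86.7%, 81.1% and 78.6% of Xcr1/Clec9a cells, with median depths of 17607, 18708 and 17274.5 UMIs. The share was 2.26%, 3.25% and 3.37% of B cells, whose median depths were 3665, 4611 and 4077 UMIs. Clec9a was at 0% in B cells of every library but was found in 46.4%, 55.8% and 35.5% of plasmacytoid dendritic cells and 21.2%, 21.8% and 13.1% of sinusoidal endothelial cells. Cd209a was found in 44.1%, 44.2% and 45.2% of plasmacytoid cells. Zbtb46 reached 119.2, 143.4 and 154.1 CPM in sinusoidal endothelial cells, higher than in the members of each library.

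The label did not hold equally for all members. The 13 unsorted cells of the IDD+HID library carried 26520 CPM of the 10 monocyte and macrophage markers, all 10 detected, against 2605 CPM in Xcr1/Clec9a cells and 1719 CPM in Cd209a cells of the same library. Lyz2, the lysozyme of monocytes and macrophages, reached at least 50 UMIs per 10000 in 9 of these 13 cells, with a median of 187.5, against 5 of 37 Xcr1/Clec9a cells and 0 of 16 Cd209a cells (a limit chosen after the values were seen). The 3 unsorted IDD cells held no UMI of any of the 10 markers, but 1239 CPM of the 6 sinusoidal endothelial markers, of which 4 were detected. The IDD+HTF library had no unsorted cell. The endothelial markers Stab2, Clec4g, Dnase1l3 and Kdr together reached at least 20 UMIs per 10000 in 2, 11 and 2 IDD+HTF, IDD+HID and IDD members. The summed endothelial markers, all 6 detected in every library, were at 1017, 1922 and 886.6 CPM. The 6 hepatocyte markers, also all detected, were at 1797, 743 and 121.9 CPM. Of the 8 Kupffer cell markers 8, 7 and 5 were detected, at 843.7, 646.9 and 1302 CPM in sum, with Marco at 0 in IDD+HID members and Marco, Vsig4 and Timd4 at 0 in IDD members. The part of these cells and of this RNA in the differences below was not tested beyond the counts given without them. For that reason Xcr1/Clec9a cells are also given on their own, which leaves out the unsorted cells but not the other RNA. Their endothelial markers were at 1311, 2512 and 1024 CPM in the IDD+HTF, IDD+HID and IDD libraries. Their Kupffer cell markers were at 1086, 802.1 and 1857 CPM, and both sums were above those of all members in each library. Their hepatocyte markers were at 2225, 768.1 and 119 CPM.

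Between the sorted subsets, many genes of the cDC1 and cDC2 lists differed in all 3 libraries. This is a description, because the split itself used Xcr1, Clec9a and Cd209a. Measured genes had at least 50 UMIs summed over the 2 subsets and all 3 libraries, 4705 in all. Of these, 198 stood at least 2-fold higher in Xcr1/Clec9a than in Cd209a cells in every library (4.21%) and 104 at least 2-fold lower (2.21%). Some rested on few UMIs in a library, as Nr1h3 with 4 against 0 in the IDD+HTF library, 0.4-fold against a floor of 3 counts. On the cDC1 list, 19 of 21 measured genes were higher and 0 lower, counting Xcr1, Clec9a and Naaa. On the cDC2 list, 0 of 17 were higher and 10 lower in Xcr1/Clec9a cells, counting Cd209a. Batf3, a cDC1 factor that was not among the 19, was at 204.1, 179.3 and 190.5 CPM in Xcr1/Clec9a cells of the IDD+HTF, IDD+HID and IDD libraries against 69.2, 133 and 146.6 CPM in Cd209a cells.

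Irf8, the factor that specifies cDC1 (chr8:120736358-120756694, plus strand), was at 1796, 1568 and 2048 CPM in Xcr1/Clec9a cells of the IDD+HTF, IDD+HID and IDD libraries. Cd209a cells had 34.6, 45.8 and 133.3 CPM, which put Irf8 51.9-fold, 34.2-fold and 15.4-fold higher in Xcr1/Clec9a cells. Irf8 was found in 15 of 15, 37 of 37 and 13 of 14 Xcr1/Clec9a cells. Id2, an inhibitor of helix-loop-helix factors that cDC1 need, was at 1678, 1399 and 1611 CPM in Xcr1/Clec9a cells, against 449.8, 133 and 26.7 CPM in Cd209a cells. The uptake and cross-presentation gene Wdfy4 was at 529.4, 550.9 and 488.1 CPM, against 219.1, 229.2 and 93.3 CPM, between 2.40-fold and 5.23-fold higher in Xcr1/Clec9a cells.

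Sensing and cytokine genes went both ways. Of the pattern recognition list 3 of 11 were higher in Xcr1/Clec9a cells (Tlr3, Tlr11 and Tlr12) and 3 lower (Tlr2, Clec7a and Cd14). The shares over all genes were 4.21% higher and 2.21% lower. Tlr12 rested on 9, 34 and 12 UMIs in Xcr1/Clec9a cells of the IDD+HTF, IDD+HID and IDD libraries against 0 in Cd209a cells. Against a floor of 3 counts its ratio was 0.90 in the IDD+HTF and 1.19 in the IDD library. Of the cytokine and chemokine list 1 of 16, Il12b, was higher and 3 were lower (Il1b, Ccl6 and Ccl9), against the same 4.21% and 2.21%. Tlr3, a sensor of double-stranded RNA, was at 269.9, 229 and 246 CPM in Xcr1/Clec9a cells and at 0, 27.5 and 13.3 CPM in Cd209a cells. Itgae, the CD103 integrin chain, was at 79.6, 91.6 and 142.9 CPM in Xcr1/Clec9a cells and at 0, 4.58 and 0 CPM in Cd209a cells. The adhesion gene Cd24a was 6.09-fold, 4.87-fold and 19.8-fold higher and the adhesion gene Cadm1 10.5-fold, 11.7-fold and 22.9-fold higher in Xcr1/Clec9a cells of the IDD+HTF, IDD+HID and IDD libraries. The cystatin gene Cst3 was at 17620, 21660 and 20810 CPM in Xcr1/Clec9a cells, against 6932, 5634 and 4692 CPM in Cd209a cells. Il12b, a subunit of interleukin 12, was at 72.7, 249.9 and 182.5 CPM in Xcr1/Clec9a cells and at 0 in Cd209a cells of all libraries, but it rested on 3, 6 and 2 cells. C1qa and C1qb, complement genes of macrophages, were also higher in Xcr1/Clec9a cells. One IDD+HTF cell held all their UMIs of that subset, and the top IDD cell held 73.4% of the C1qa and 80.7% of the C1qb UMIs.

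Lower in Xcr1/Clec9a than in Cd209a cells were the lectins Mgl2 and Clec10a. Mgl2 was at 0, 0 and 3.97 CPM in Xcr1/Clec9a cells of the IDD+HTF, IDD+HID and IDD libraries and at 461.4, 403.4 and 186.6 CPM in Cd209a cells, where 4 of 8, 6 of 16 and 2 of 6 cells carried it. Clec10a was at 0, 5.23 and 3.97 CPM, against 242.2, 316.3 and 120 CPM. The calcium-binding gene S100a4 was at 0, 98.1 and 119 CPM in Xcr1/Clec9a cells and at 945.8, 1256 and 1706 CPM in Cd209a cells. Itgam, the CD11b integrin chain, was at 13.8, 14.4 and 3.97 CPM, against 103.8, 142.1 and 160.0 CPM. Of the NF-kB target list, 0 of 16 genes were higher and 6 lower in Xcr1/Clec9a cells, against 4.21% and 2.21% of all genes, among them the feedback inhibitors Tnfaip3 and Nfkbiz. The inflammatory cytokine gene Il1b was 3.21-fold, 4.56-fold and 23.2-fold lower in Xcr1/Clec9a cells. Flt3, Zbtb46, the chemokine receptor Ccr2 and the cDC2 surface gene Sirpa did not pass 2-fold in one direction in all libraries, and Irf4, the cDC2 factor, had 5, 18 and 5 UMIs over all members.

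**Figure D2:**
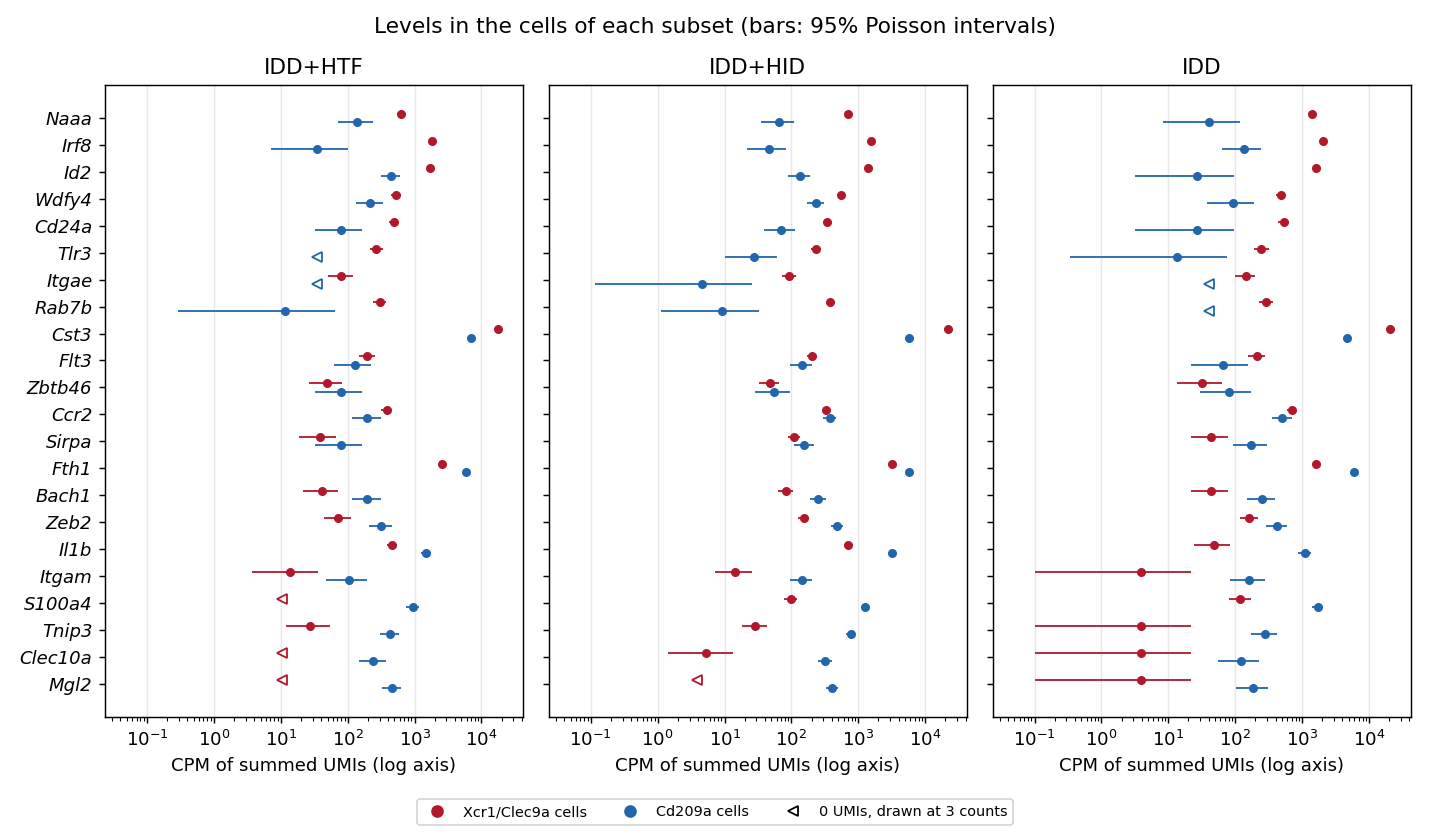
CPM of summed UMIs (log axis) of 22 genes in Xcr1/Clec9a cells (red) and Cd209a cells (blue), with 1 panel per library and bars for 95% Poisson intervals. Naaa to Cst3 stand higher in Xcr1/Clec9a cells in each panel, Flt3 to Sirpa show no common direction beyond 2-fold, and Fth1 to Mgl2 stand higher in Cd209a cells.

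The share of conventional dendritic cells was lowest in the IDD+HTF library. They were 0.717% (0.455 to 1.07) of cells in the IDD+HTF library, 1.86% (1.44 to 2.36) in the IDD+HID library and 1.72% (1.10 to 2.58) in the IDD library, with exact binomial intervals. Of conventional and plasmacytoid dendritic cells together, they were 21.5%, 32.4% and 42.6% in that order. Monocytes or macrophages also had their lowest share in the IDD+HTF library, at 2.34%, 4.85% and 4.57% of cells in that order. B cells were 5.52%, 13.03% and 6.67% of cells, so the makeup of the suspensions differed between the mice in other classes too. After every cell was thinned to 2000 UMIs, the rule kept 11 of 2587, 34 of 3272 and 12 of 1069 cells.

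A mature and a cycling state were counted beside the subsets. Cells with at least 3 UMIs of Ccr7, Fscn1 and Ccl22, genes of mature migrating dendritic cells, numbered 2 of 23 (8.70%) in the IDD+HTF library, 10 of 66 (15.2%) in the IDD+HID library and 2 of 23 (8.70%) in the IDD library. The 2 IDD cells were unsorted and the 2 IDD+HTF cells were Xcr1/Clec9a cells. In the IDD+HID library 6 were Xcr1/Clec9a, 2 Cd209a and 2 unsorted cells. Cells with at least 2 UMIs of the proliferation genes Mki67 and Top2a numbered 7 (30.4%), 7 (10.6%) and 4 (17.4%), with intervals that overlapped. Of the 18 Mki67 and Top2a cells in all, 14 were Xcr1/Clec9a cells.

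After the high-iron diet, inflammatory and interferon-related genes were higher than in the mouse on the iron-deficient diet alone. Of 4351 genes with at least 50 UMIs in the 2 libraries, 330 stood at least 2-fold higher in IDD+HID than in IDD members (7.58%) and 93 at least 2-fold lower (2.14%), and the median log2 ratio of all genes was 0.07. In Xcr1/Clec9a cells alone, 294 of 3163 were higher (9.29%) and 67 lower (2.12%). Of the cDC1 list 0 of 22 measured genes were higher and 1, Gcsam, was lower, and of the 15 class II processing genes 0 passed 2-fold. Both lists hold genes that chose the cells, so these counts are a description and nothing is read from them. Of the cDC2 list 2 of 17 were higher, Clec10a and Il1b, and 0 lower, against 7.58% and 2.14% of all genes, with a median log2 ratio of 0.37. In Cd209a cells 3 of 10 were higher, Clec10a, Il1b and Mgl2, but the share over all genes was not counted there, so nothing is read from it. Of the 6 IDD Cd209a cells, 4 carried Clec10a and 2 Mgl2, with 55.6% and 85.7% of the UMIs in 1 cell. Without members that carried endothelial, T or NK cell, stellate or neutrophil markers, 215 genes were higher, and among genes with no cell above 25% of the UMIs of the higher library 43 were lower.

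The NF-kB targets were among these genes. Of 16 measured, 10 were higher in IDD+HID than in IDD members and 0 lower, against 7.58% and 2.14% of all genes, with a median log2 ratio of 1.07. In sorted members, where the share over all genes was not counted, 9 of 16 were higher. In Xcr1/Clec9a cells alone 7 of 11 were higher, against 9.29% of all genes there. Nfkbia, the inhibitor that NF-kB itself induces, was at 711 CPM in IDD+HID members and 213.3 CPM in IDD members, 3.33-fold higher (2.64 to 4.27), and in Xcr1/Clec9a cells 2.43-fold higher (1.79 to 3.37). Rel, an NF-kB subunit gene, was at 568.6 CPM in IDD+HID members and 274.3 CPM in IDD members. Cd83, a surface marker of activated dendritic cells, was at 596.7 CPM in IDD+HID and 190.5 CPM in IDD Xcr1/Clec9a cells, 3.13-fold higher (2.32 to 4.31), and was found in 32 of 37 and 9 of 14 of them. Il1b was at 702.6 CPM in IDD+HID and 47.6 CPM in IDD Xcr1/Clec9a cells, 14.8-fold higher (8.38 to 28.7), and was found in 23 of 37 and 3 of 14 cells. Il1b in Cd209a cells was at 3205 and 1106 CPM. Cd83 and Il1b are not on the NF-kB target list. Bcl2a1b, which is among the 10, has near-identical copies, so its counts are uncertain.

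Other inflammatory genes belonged to fewer cells. The chemokine gene Ccl3 had 284 UMIs in 26 IDD+HID members and 10 UMIs in 3 IDD members, 9.12-fold higher (4.89 to 19.2). Tnfsf9, the 4-1BB ligand, had 229 of its 268 IDD+HID UMIs in Cd209a cells, and was 9.56-fold higher (4.96 to 21.1) in IDD+HID than in IDD members. Ptgs2, the inducible cyclooxygenase, had 95 UMIs in 11 IDD+HID members and 0 in IDD members, at least 10.2-fold higher against a floor of 3 counts in the IDD library. Ccr7, the lymph node homing receptor, was at 192.2 CPM in IDD+HID and 22.2 CPM in IDD members, but 60.2% of the IDD+HID UMIs came from 1 cell of 6. Cebpb, a myeloid transcription factor, was at 505.4 CPM in IDD+HID and 63.7 CPM in IDD members, and 386 of its 568 IDD+HID UMIs lay in the unsorted cells. Of the monocyte genes, Ly6c2 had 168 of its 317 and F13a1 81 of its 97 IDD+HID UMIs in the unsorted cells.

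The interferon list needs its cells named. Of 19 measured genes, 8 were higher in IDD+HID than in IDD members and 1 lower, against 7.58% and 2.14% of all genes. Among sorted members alone, where the share over all genes was not counted, 2 of 14 were higher, Cxcl9 and Isg15. In Xcr1/Clec9a cells alone 5 of 14 were higher, against 9.29% of all genes there. Ifit3 had 138 UMIs in IDD+HID members, of which 109 lay in 7 unsorted cells and 21 in 6 Xcr1/Clec9a cells, against 7 UMIs in IDD members. Cxcl9, a T cell-attracting chemokine gene induced by interferon gamma, lay elsewhere: 1092 of 1123 IDD+HID UMIs lay in 11 Xcr1/Clec9a cells, against 98 UMIs in 4 IDD Xcr1/Clec9a cells. It was at 1429 CPM in IDD+HID and 388.9 CPM in IDD Xcr1/Clec9a cells, 3.67-fold higher (2.99 to 4.57). Isg15, a ubiquitin-like protein gene, had 71 UMIs in 15 IDD+HID and 1 UMI in 1 IDD Xcr1/Clec9a cell, a ratio of 23.4 (4.07 to 938). Cxcl10 was at 230.3 CPM in 7 IDD+HID Xcr1/Clec9a cells and at 0 in IDD ones, at least 19.3-fold higher, while 2 IDD Cd209a cells held 30 UMIs of it. Iigp1, an interferon-induced GTPase gene, turned with the cells taken: it was lower over all IDD+HID members, at 161.9 CPM against 374 CPM in IDD members, and higher in Xcr1/Clec9a cells, at 215.9 CPM against 3.97 CPM in IDD ones, from 165 UMIs in 5 cells and 1 UMI in 1 cell.

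The promoters of these interferon genes are shown to set their sequences beside those counts, as the 250 bases before the RefSeq start (build GRCm38.p6), 5′ to 3′ on the gene's strand. Ifit3 is at chr19:34583279-34583528 (plus), Isg15 at chr4:156200819-156201068 (minus), Cxcl10 at chr5:92348890-92349139 (minus) and Cxcl9 at chr5:92328080-92328329 (minus). Capitals mark matches to the core of the interferon-stimulated response element, searched as GAAA, any 2 bases and GAAA again, on either strand.
Ifit3: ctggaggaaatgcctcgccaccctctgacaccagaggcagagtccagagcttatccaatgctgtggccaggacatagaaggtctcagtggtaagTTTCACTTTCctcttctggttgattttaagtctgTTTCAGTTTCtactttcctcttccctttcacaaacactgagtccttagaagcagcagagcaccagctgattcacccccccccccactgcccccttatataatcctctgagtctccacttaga
Isg15: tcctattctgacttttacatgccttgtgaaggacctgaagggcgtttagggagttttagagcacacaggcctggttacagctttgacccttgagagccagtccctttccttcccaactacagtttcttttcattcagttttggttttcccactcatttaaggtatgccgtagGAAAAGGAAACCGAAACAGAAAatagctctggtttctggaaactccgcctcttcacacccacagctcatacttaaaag
Cxcl10: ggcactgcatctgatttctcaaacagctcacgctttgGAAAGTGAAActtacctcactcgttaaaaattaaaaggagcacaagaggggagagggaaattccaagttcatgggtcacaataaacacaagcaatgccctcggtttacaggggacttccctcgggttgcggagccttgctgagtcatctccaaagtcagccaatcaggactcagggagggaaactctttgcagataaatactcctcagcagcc
Cxcl9: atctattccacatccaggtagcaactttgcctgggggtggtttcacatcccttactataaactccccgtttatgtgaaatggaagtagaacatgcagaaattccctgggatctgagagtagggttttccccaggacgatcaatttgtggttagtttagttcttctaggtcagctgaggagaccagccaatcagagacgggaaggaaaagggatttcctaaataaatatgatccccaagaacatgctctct
Ifit3 holds 2 matches, Isg15 3 that overlap, Cxcl10 1 and Cxcl9 0. Among all 32851 promoters of the same length 978 hold the motif (2.98%), against 10 of 18 promoters of the interferon list (55.6%) and 0 of 21 of the NF-kB list. The NF-kB core GGGANTTCC, searched on both strands, was found in 1.43% of all promoters, in 4 of 21 of the NF-kB list (19.0%), and, of the interferon list, in Cxcl10 and Cxcl9. A match describes letters in these windows, and factor binding was not measured.

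**Figure D3:**
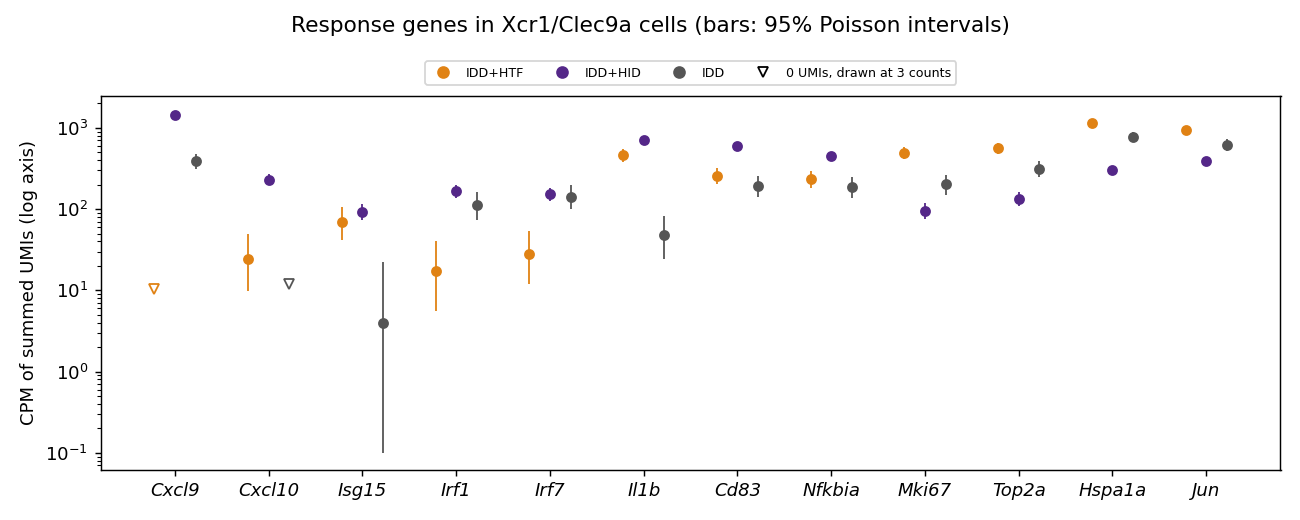
CPM of summed UMIs (log axis) of 12 genes in Xcr1/Clec9a cells of the IDD+HTF, IDD+HID and IDD libraries, with bars for 95% Poisson intervals and open triangles for genes at 0. Cxcl9 reaches 1429 CPM in the IDD+HID library and is at 0 in the IDD+HTF library, Il1b is lowest in the IDD library, and Mki67 and Top2a are highest in the IDD+HTF library.

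After holo-Tf, fewer genes could be measured and the differences from the iron-deficient diet alone were mixed. Of 2311 genes with at least 50 UMIs in the 2 libraries, 127 stood at least 2-fold higher in IDD+HTF than in IDD members (5.5%) and 80 at least 2-fold lower (3.46%), with a median log2 ratio of -0.01. In Xcr1/Clec9a cells, 106 of 1650 were higher (6.42%) and 66 lower (4.0%). Among genes with no cell above 25% of the UMIs of the higher library the counts were 55 higher and 45 lower, so single cells carried many of the calls. Of the cDC1 list, 0 of 19 measured genes passed 2-fold in either direction, and the class II list had 1 of 15 higher, Ctsl, with 82.5% of its IDD+HTF UMIs in 1 cell. Nothing is read from these counts either, since genes of both lists chose the cells.

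Several interferon-related genes were lower after holo-Tf. Of 7 measured, 4 were lower in IDD+HTF than in IDD members, among them Cxcl9, Iigp1 and Irf1, and 0 higher. The shares over all genes were 3.46% lower and 5.5% higher. In sorted members, where no such share was counted, 2 of 7 were lower. In Xcr1/Clec9a cells 1 of 4 was lower, against 4.0% of all genes there. Cxcl9 had 1 UMI in IDD+HTF members and 117 UMIs in 6 IDD members, and in Xcr1/Clec9a cells it was at 0 against 388.9 CPM, at least 37.5-fold lower. Irf1, an interferon-induced transcription factor gene, was at 71.9 CPM in IDD+HTF members against 157.9 CPM in IDD members, 2.20-fold lower (1.37 to 3.61). Psmb10, an immunoproteasome subunit gene, was at 82.5 CPM in IDD+HTF members against 205.0 CPM in IDD members, 2.49-fold lower (1.61 to 3.91), in 15 and 20 members. The chemokine gene Ccl5 had 2 UMIs in IDD+HTF members and 113 UMIs in IDD members, of which 84.1% came from 1 cell.

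NF-kB targets were mixed after holo-Tf. Of 9 measured, 3 were higher and 2 lower in IDD+HTF than in IDD members, against 5.5% and 3.46% of all genes, with a median log2 ratio of 0.72. In Xcr1/Clec9a cells 0 of 5 were higher and 2 lower, against 6.42% and 4.0% of all genes there, with a median of -0.88. Nfkb1, a subunit precursor gene, was at 93.2 CPM in IDD+HTF members against 196.7 CPM in IDD members, 2.11-fold lower (1.39 to 3.26). Traf1, a signalling adaptor gene, was at 90.5 and 241 CPM, 2.66-fold lower (1.77 to 4.09). Il1b was at 460.2 CPM in IDD+HTF against 47.6 CPM in IDD Xcr1/Clec9a cells, 9.66-fold higher (5.35 to 19.2), found in 11 of 15 and 3 of 14 cells, with 41.4% of the IDD+HTF UMIs in 1 cell. Ccl3 had 89 UMIs in 8 IDD+HTF members and 10 UMIs in 3 IDD members, 8.55-fold higher (4.44 to 18.4). Il1b and Ccl3 are not on the NF-kB target list.

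Proliferation genes were highest in the IDD+HTF members. Mki67 was at 388.6 CPM in IDD+HTF, 101.4 CPM in IDD+HID and 144.1 CPM in IDD members, and 1 cell held 34.3%, 33.3% and 75% of its UMIs. Top2a was at 476.4, 136.1 and 218.9 CPM in the same order. Of 13 measured cell cycle genes 4 were higher in IDD+HTF than in IDD members and 0 lower, against 5.5% and 3.46% of all genes. In Xcr1/Clec9a cells 3 of 10 were higher, against 6.42% of all genes there. The histone gene Hist1h2ap had 694 UMIs in 9 IDD+HTF members, 41 in 5 IDD+HID members and 26 in 3 IDD members. Hist1h2ap was 25.6-fold higher (17.4 to 39.5) in IDD+HTF than in IDD members, and 44.1% of its IDD+HTF UMIs lay in 1 cell, while its near-identical histone copies make the counts uncertain. The cells with at least 2 UMIs of Mki67 and Top2a numbered only 7, 7 and 4.

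Of 25 measured immediate early and dissociation genes, 4 were higher (Nr4a1, Fosb, Egr2 and Ier3) and 4 lower (Jun, Dnajb1, Hspa1a and Hspa1b) in IDD+HID than in IDD members, against 7.58% and 2.14% of all genes. In Xcr1/Clec9a cells alone 4 of 25 were higher (Atf3, Egr2, Fosb and Ier3) and 1 lower, Hspa1a, against 9.29% and 2.12% of all genes there. In IDD+HTF members 2 of 24 were higher than in IDD members, Fosb and Nr4a1, and 0 lower. The shares over all genes in that comparison were 5.5% and 3.46%, so nothing is read from this count. The unfolded protein response list had 0 of 10 higher and 2 lower, Ddit3 and Sdf2l1, in IDD+HID than in IDD members, against 7.58% and 2.14%. It had 0 of 10 past 2-fold in IDD+HTF against IDD members. Jun, an AP-1 subunit, was at 417.3 CPM in IDD+HID members against 1311 CPM in IDD members, 3.14-fold lower (2.76 to 3.58), but 1.59-fold lower (1.30 to 1.94) in Xcr1/Clec9a cells. The heat shock gene Hspa1a was at 339.9 CPM in IDD+HID and 1374 CPM in IDD members, 4.04-fold lower (3.53 to 4.63), while IDD+HTF members had 1397 CPM. In the IDD library Cd209a cells held 300 Hspa1a UMIs and Xcr1/Clec9a cells 193, against 70 and 229 in the IDD+HID library. Hspa1a and Hspa1b are near-identical, so how reads divide between them is uncertain. Nr4a1, a nuclear receptor gene, was at 670 CPM in IDD+HID and 238.3 CPM in IDD members, 2.81-fold higher (2.25 to 3.56). Tissue digestion is known to induce genes of this kind, and its part was not tested. B cells showed a lower Hspa1a as well, at 142.9 CPM in the IDD+HID and 3338 CPM in the IDD library, and sinusoidal endothelial cells did not, at 727.2 and 517.4 CPM.

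Between the 2 iron-treated mice, interferon genes were higher and proliferation genes lower in IDD+HID than in IDD+HTF members. Of 4410 genes, 270 stood at least 2-fold higher in IDD+HID than in IDD+HTF members (6.12%) and 142 lower (3.22%), and in Xcr1/Clec9a cells 182 of 3334 were higher (5.46%) and 157 lower (4.71%). Among genes with no cell above 25% of the UMIs of the higher library, 49 were lower. The interferon list had 12 of 19 higher and 0 lower, with a median log2 ratio of 1.23. It had 7 of 15 among sorted members and 8 of 14 in Xcr1/Clec9a cells. The cell cycle list had 6 of 18 lower and 1 higher, Cdkn1a, and among sorted members 4 of 17 lower. For sorted members the share over all genes was not counted. Each pair of the 3 comparisons shares a library, so they are not independent.

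Irf7, a regulator of type I interferon genes, was at 153.1 CPM in IDD+HID and 27.7 CPM in IDD+HTF Xcr1/Clec9a cells, 5.53-fold higher (2.72 to 13.1), in 27 of 37 and 8 of 15 cells. IDD Xcr1/Clec9a cells had 142.9 CPM of Irf7, close to the IDD+HID value. Irf1 was at 166.2 and 17.3 CPM in the same cells, 9.61-fold higher (4.01 to 30.1), with 111.1 CPM in IDD cells. Gbp2, an interferon-induced GTPase gene, was at 126.9 and 17.3 CPM, but 52.6% of the IDD+HID UMIs lay in 1 cell. Cxcl9 was at least 138-fold higher in IDD+HID Xcr1/Clec9a cells, where IDD+HTF cells had 0 UMIs. Tnf, the inflammatory cytokine gene, was at 124.3 and 31.1 CPM in Xcr1/Clec9a cells, 3.99-fold higher (2.02 to 8.997). Traf1 was at 212 and 51.9 CPM, 4.08-fold higher (2.40 to 7.47), with 190.5 CPM in IDD cells. Cd40, the receptor through which T cells license dendritic cells, had 86 UMIs in 19 IDD+HID members and 4 UMIs in 3 IDD+HTF members, 7.19-fold higher (2.71 to 27.0). On the mature and migratory list 7 of 11 genes were higher and 0 lower, against 6.12% and 3.22% of all genes. It had 4 of 9 higher in sorted members, where no share over all genes was counted. In Xcr1/Clec9a cells 4 of 9 were higher and 1 lower, Ccl22, against 5.46% and 4.71% of all genes there. In all members 1 cell held 47.8% of the IDD+HID UMIs of Ccl5, 60.2% of those of Ccr7 and 53.3% of those of Il12b. Mki67 was 3.83-fold lower (2.98 to 4.94) in IDD+HID than in IDD+HTF members.

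**Figure D4:**
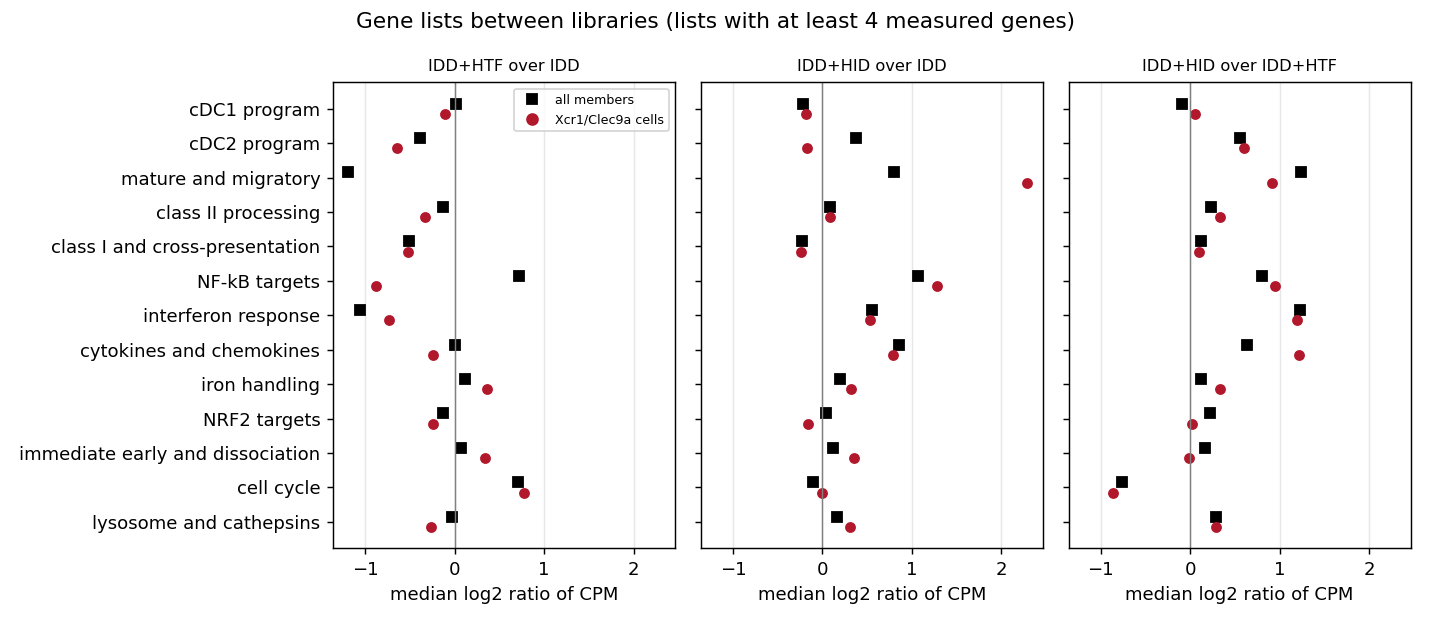
Median log2 ratio of CPM (x axis) of each gene list with at least 4 measured genes, for all members (black squares) and Xcr1/Clec9a cells (red circles), with 1 panel per comparison. In both panels of IDD+HID the NF-kB, interferon and mature lists lie right of 0. In the panel of IDD+HTF over IDD the interferon list lies left of 0, and the NF-kB list lies at 0.72 for all members and at -0.88 for Xcr1/Clec9a cells.

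Among iron genes, the ferritin heavy chain gene was higher over all members of both iron-treated mice, and in Xcr1/Clec9a but not in Cd209a cells, a difference between subsets that was not tested. Fth1 (chr19:9980598-9985098, plus strand), the ferritin subunit that oxidises iron for storage, was at 3316 CPM in IDD+HTF members, 3983 CPM in IDD+HID members and 2707 CPM in IDD members. It was 1.23-fold higher (1.13 to 1.33) in IDD+HTF and 1.47-fold higher (1.37 to 1.58) in IDD+HID than in IDD members. Xcr1/Clec9a cells had 2550, 3229 and 1631 CPM, 1.56-fold higher (1.38 to 1.77) in IDD+HTF and 1.98-fold higher (1.78 to 2.20) in IDD+HID than in IDD cells, with 31.3% of the IDD+HTF UMIs in 1 cell. Cd209a cells had more Fth1 in each library, at 5871, 5662 and 5972 CPM, and ratios of 0.983 (0.864 to 1.12) and 0.948 (0.850 to 1.06) to the IDD cells. Per cell, the lowest, median and highest Fth1 of Xcr1/Clec9a cells were 1.72, 20.3 and 43.8 UMIs per 10000 in the IDD+HTF library. They were 5.60, 25.4 and 281.5 in the IDD+HID library and 2.68, 15.5 and 33.9 in the IDD library, so the single cells overlapped widely. The IDD+HID cells at 281.5 and 145.8 lay above the next highest, at 51.98, and are part of the 1.98-fold ratio.

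Fth1 was also higher in IDD+HID cells of 5 other classes. Ratios of IDD+HID to IDD were 1.24 (1.18 to 1.31) in plasmacytoid dendritic cells, 1.63 (1.503 to 1.76) in monocytes or macrophages, 1.26 (1.23 to 1.29) in Kupffer cells, 1.23 (1.16 to 1.31) in B cells and 1.92 (1.79 to 2.05) in sinusoidal endothelial cells. The droplets with at most 100 UMIs, which hold free RNA, had 1370, 1641 and 823 CPM of Fth1 in the IDD+HTF, IDD+HID and IDD libraries. Ftl1 (chr7:45457944-45459884, minus strand), the ferritin light chain, was at 2124, 2911 and 1818 CPM over members, and its near-identical copies make the counts uncertain. Ftl1 was 1.48-fold higher (1.34 to 1.63) in IDD+HID than in IDD Xcr1/Clec9a cells, and 3.42-fold higher (3.25 to 3.60) in sinusoidal endothelial cells. Cd209a cells had median Ftl1 of 10.3, 19.0 and 19.1 UMIs per 10000 in the IDD+HTF, IDD+HID and IDD libraries, so the IDD+HTF value was the lowest. In these cells Ftl1 was past 2-fold higher in IDD+HID than in IDD+HTF.

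**Figure D5:**
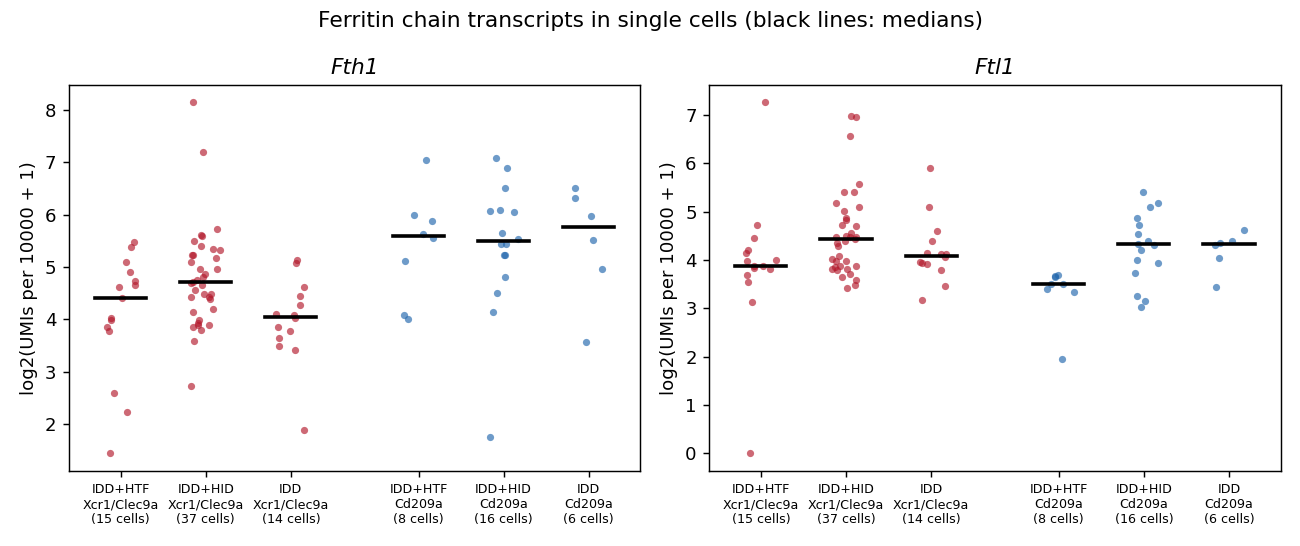
Each point is 1 sorted member, with its Fth1 (left) or Ftl1 (right) as log2(UMIs per 10000 + 1), by subset and library, and black lines for medians. The Fth1 medians of Xcr1/Clec9a cells are 20.3, 25.4 and 15.5 UMIs per 10000 in the IDD+HTF, IDD+HID and IDD libraries, and those of Cd209a cells are 47.4, 44.0 and 53.2.

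Other genes of iron transport were low in these cells. Slc40a1, the exporter ferroportin, had 6, 73 and 25 UMIs in 2, 11 and 3 members of the IDD+HTF, IDD+HID and IDD libraries, which is 15.97, 64.96 and 69.3 CPM. Kupffer cells had 2994, 2888 and 2436 CPM of Slc40a1, and the free RNA 234.4, 266.1 and 103.7 CPM, above the members in every library. Slc11a1, the phagosomal metal transporter NRAMP1, was at 26.6, 56.1 and 38.8 CPM, with 10 of 10, 48 of 63 and 14 of 14 UMIs in Xcr1/Clec9a cells. Tfrc had 8, 24 and 11 UMIs and Hmox1, the heme oxygenase, 7, 24 and 16 UMIs over all members. The importers Slc11a2 and Slc39a14 had at most 7 UMIs in any library, Ireb2, which encodes an iron regulatory protein, at most 26, and Nqo1, an NRF2 target, 1 in each. Bmp6, the iron-induced ligand for hepcidin control made by endothelial cells, had 1, 9 and 0 UMIs.

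The iron and redox lists had few measured genes. Iron handling had 0 of 10 past 2-fold between IDD+HID and IDD members, against 7.58% of all genes higher and 2.14% lower, and 1 of 6 higher, Trf, in IDD+HTF than in IDD members, against 5.5%. Between IDD+HID and IDD+HTF members 2 of 11 were higher, Slc11a1 and Slc40a1, and 2 lower, Cp and Trf, against 6.12% and 3.22% of all genes. Trf, the transferrin gene made by hepatocytes, had 66.4% of its IDD+HTF UMIs in 1 cell. Of the NRF2 targets 2 of 14 were higher in IDD+HID than in IDD members, against 7.58% of all genes, Gclc and Gsr, both in glutathione metabolism, and 79.4% of the IDD+HID UMIs of Gclc came from 1 cell. Of the ferroptosis list, with only 5 measured genes, 2 were higher in IDD+HID than in IDD members (Gch1 and Ptgs2), against 7.58% of all genes. Compared with IDD+HTF members 2 of 5 were higher (Ptgs2 and Gpx4), against 6.12% of all genes, with 0 lower in either comparison. Bach1, the heme-sensing repressor, was at 77.2, 145 and 91.4 CPM in the IDD+HTF, IDD+HID and IDD members. It was lower in Xcr1/Clec9a than in Cd209a cells of all libraries, by 4.72-fold, 3.06-fold and 5.80-fold in the same order.

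Some of the largest differences between libraries belonged to 1 cell. Ccl21a, a lymphatic chemokine gene, had 716 UMIs in 1 unsorted IDD member, and the lymphatic endothelial gene Mmrn1 had 72 UMIs, also in 1 unsorted IDD member. Unsorted cells are part of every comparison over all members. Col3a1, a fibroblast collagen gene, had 64 UMIs in 1 IDD+HTF member and 0 in IDD members.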

How the data were processed

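Single-cell RNA was measured with 10x Chromium 3' chemistry in 1 liver library per group. The authors deposited UMI counts per gene and barcode for all droplets. The submitters' processing notes name GRCm38 and Seurat 4; which aligner and counter were used is not given in the sources used here. Library totals were 55478904 UMIs (IDD+HTF), 75404660 (IDD+HID) and 34552858 (IDD). Counts of members were summed per library and subset and scaled to CPM by total UMIs. Ratios of CPM carry exact conditional binomial 95% intervals, levels exact Poisson intervals and shares Clopper-Pearson intervals. All cover counting error only, since cells of 1 mouse are not replicates. Genes with at least 50 UMIs in a pair of libraries were measured, and between subsets those with 50 over both subsets and all 3 libraries. A ratio of at least 2-fold is a rule of size, not a test. Fold values printed against 0 use a floor of 3 counts over the group. The counts of genes past 2-fold used no floor, so a measured gene at 0 on one side counted as past 2-fold.

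The members, the 24 gene lists, of which 4 of 429 entries matched no gene, and the comparisons were chosen with earlier results of these data known. Named were the genes of the rule, a fixed set of dendritic and iron genes, and up to 10 genes per comparison and direction by the interval bound nearest to 1, with levels at least 2 times those in droplets of 100 or fewer UMIs. Of the ranked genes and of the list results, only some are reported here. Genes were placed by GENCODE identifiers and promoters by RefSeq symbols. The ratio code was tested on simulated data. Scrublet (scanpy 1.11.5) called 5, 7 and 23 of the cells in the IDD+HTF, IDD+HID and IDD libraries, too few to have worked, and no member, so doublets were not removed. Python 3.11.15, numpy 2.4.6, scipy 1.17.1 and pandas 2.3.3 were used.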

Additional observations from a re-analysis of the deposited data

Results flagged for a closer look

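Dnajb1, a heat shock cochaperone gene, went opposite ways in the subsets between holo-Tf and the iron-deficient diet alone. Its log2 ratio of IDD+HTF over IDD was 2.04 in Xcr1/Clec9a cells, at 439.4 and 107.1 CPM, and -2.05 in Cd209a cells, at 219.1 and 906.5 CPM. In the IDD Cd209a cells 73.5% of the UMIs lay in 1 of 3 cells that carried it. The difference between the subsets was not tested.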

How the results depend on the processing

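Of the share of members among cells, 19 of 21 alternatives lay within the interval first given, and of the share of Xcr1/Clec9a cells 27 of 27. Thinned to 2000 UMIs, members were 0.425% of IDD+HTF cells and 1.04% of IDD+HID cells. Of the gene counts, 65 of 90 lay within 1.5 times. With at least 100 UMIs per gene, 47 were higher and 32 lower in IDD+HTF than in IDD members, 142 and 34 in IDD+HID than in IDD members, and 111 and 73 in IDD+HID than in IDD+HTF members. With no filter the counts were 4157 and 3908, 2439 and 3774, and 2258 and 3807 in the same order, most from genes of a few UMIs. In Cd209a cells alone they were 34 and 34, 83 and 25, and 71 and 45. As means over cells, 132 were lower in IDD+HTF than in IDD members and 422 higher in IDD+HID than in IDD+HTF members. Without members carrying markers of other classes, 215 were higher in IDD+HID than in IDD members. With no cell above 25% of the UMIs, an alternative chosen after seeing the data, 55 were higher and 45 lower in IDD+HTF than in IDD members, 43 lower in IDD+HID than in IDD members and 49 lower in IDD+HID than in IDD+HTF members. The cause was not tested. TMM scaling added 0.01, 0.11 and 0.10 to all log2 ratios in the same order of comparisons. No paired analysis was possible because each group is 1 mouse, and for the same reason no replicate could be left out. Depth limits genes under 50 UMIs in a pair of libraries, which were not called.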
